A study of Mus musculus with 2 samples.

Results

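The genes Gata2, Gata3, Gata4, Gata5 and Gata6 encode GATA transcription factors, and they were described here by monomethylation of lysine 4 on histone H3 (H3K4me1) in mouse embryonic stem cells. They are 5 of 21887 protein-coding genes of the mm10 gene table used. They were chosen by name, and their peaks were all intervals that overlapped the gene record extended by 100 kb on each side, called the window. By this rule 278 of 313453 peaks of replicate 1, 292 of 325226 peaks of replicate 2 and 194 of 226060 peaks of the authors' replicated list belonged to the 5 genes. The cells were E14TG2a.4, a male line of strain 129/Ola whose labels give an embryonic age of 3.5 day, and chromatin was precipitated with an antibody against H3K4me1 and sequenced (ChIP-seq). The 2 biological replicates formed a single group, for which the labels give no treatment, and no control library was analysed here. Every comparison was therefore between genes within the same cells, and no test between groups could be made. Values are given for replicate 1 and replicate 2, and as mean ± SD (n = 2). The files were peak lists without read counts, so the depth is unknown.

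GATA factors are zinc finger proteins that bind the DNA letters that give them their name. Gata2 and Gata3 act with Gata1 in blood formation, Gata3 in T cells, and both in the trophoblast, the outer layer of the early embryo that forms the placenta. Gata4, Gata5 and Gata6 act in the endoderm and the heart, and Gata4 and Gata6 mark the primitive endoderm that forms beside the pluripotent cells of the embryo. H3K4me1 is a chromatin mark of enhancers and of the flanks of promoters, and it can be present at a gene that is not transcribed. Levels of RNA were not measured in these files.

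Of the sequence within 20 kb of the start, the markers of embryonic stem cells had between 8.08% in peaks, at Esrrb, and 67.4%, at Pou5f1, with a median of 41.9 ± 1.89%, against 13.8% over all genes. A peak of the replicated list lay within 2 kb of the start in 8 of 8 stem cell markers, 5 of 7 markers of feeder fibroblasts and 1 of 5 markers of differentiated endoderm, against 73.1% of all genes. Coverage within 20 kb ran from 0%, at Alb and Dab2, to 9.03%, at Sox17, in the endoderm list. Sox17 and Dab2 also belong to the endoderm partners described further below, of which 9 of 10 had a peak near the start. The low values thus hold for the marker list and not for all of these partners, whose coverage ran from 0% to 39.0%. No wider set of endoderm genes was examined. In the fibroblast list coverage ran from 0%, at Col3a1 and Dcn, to 39.8%, at Pdgfrb. Thy1 and Col1a1 also lay above the median of all genes, with 30.8% and 30.2%. In the windows of the GATA genes, 77.7% of the peaks of replicate 1 were overlapped by a peak of replicate 2, counted from 1 bp, against 82.8% over the whole list. In the other direction the shares were 81.8% in the windows and 79.4% over the whole list. Of the replicated peaks in the windows, 90.7% were overlapped by both replicate lists, against 91.4% over the whole list.

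The promoter sequences are shown for the members with an entry in the promoter table, because peaks met the start of these genes in different ways. Each run below is the 250 bp before the start, 5′ to 3′ on the strand of the gene, from RefSeq on GRCm38.p6, with CG dinucleotides in capitals. The Gata2 run lies at chr6:88193641-88193890 on the plus strand, the Gata3 run at chr2:9878601-9878850 on the minus strand and the Gata5 run at chr2:180334680-180334929 on the minus strand.
Gata2: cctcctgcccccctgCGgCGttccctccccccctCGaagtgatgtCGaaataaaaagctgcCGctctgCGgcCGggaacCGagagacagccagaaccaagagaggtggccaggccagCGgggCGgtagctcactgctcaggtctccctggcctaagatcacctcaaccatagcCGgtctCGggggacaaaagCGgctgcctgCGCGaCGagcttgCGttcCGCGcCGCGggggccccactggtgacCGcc
Gata3: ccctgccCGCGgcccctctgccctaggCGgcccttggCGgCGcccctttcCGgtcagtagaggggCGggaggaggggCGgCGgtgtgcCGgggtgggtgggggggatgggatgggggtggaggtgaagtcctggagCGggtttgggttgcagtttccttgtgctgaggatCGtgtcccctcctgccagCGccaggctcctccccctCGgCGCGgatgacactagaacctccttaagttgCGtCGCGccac
Gata5: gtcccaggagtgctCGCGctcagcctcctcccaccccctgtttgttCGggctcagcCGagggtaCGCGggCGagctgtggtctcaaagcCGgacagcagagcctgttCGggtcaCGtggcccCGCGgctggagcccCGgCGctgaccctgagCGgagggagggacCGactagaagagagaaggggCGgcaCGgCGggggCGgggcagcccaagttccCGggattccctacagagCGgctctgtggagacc
The Gata2 run held 22 CG dinucleotides, the Gata3 run 19 and the Gata5 run 22, against a median of 6 over 32851 promoters of the same length. A further Gata2 promoter, before a start 4773 bp downstream, held 24. The GATA motif AGATAA stood on neither strand of these 4 promoters, and 9.99% of all promoters held it. The same was true of the GATA motif TGATAA, held by 7.94% of all promoters, and of the E-box CATCTG, held by 14.4%. The peaks of replicate 1 covered 87.6% of the first Gata2 promoter and those of replicate 2 covered 0%, whereas the further Gata2 promoter was covered to 64.8% and 47.2%. The Gata3 promoter lay outside the peaks of both replicates, whereas the Gata5 promoter was 100% covered in replicate 1 and 22% in replicate 2.

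Over the whole window the 5 genes were spread across the middle of the distribution of all genes. For Gata2, which maintains blood stem cells, 26.6% of the window lay in peaks in replicate 1 and 23.7% in replicate 2, a coverage of 25.1 ± 2.07%. For Gata3, which directs T cell fate, coverage was 17.6% and 19.8%, or 18.7 ± 1.58%. Both were above the median of 12.8% over 21887 genes, Gata2 at the percentile 71.6 and Gata3 at 61.4. Gata4, required for heart and foregut formation, had 18.8% and 18.0%, or 18.4 ± 0.562%, at the percentile 60.7. Gata5, expressed in the developing heart and gut, had 24.8% and 19.4%, or 22.1 ± 3.78%, at the percentile 67.1. Gata6, required for the primitive endoderm, was the lowest of the 5 and below the median of all genes. Its window coverage was 7.91% and 7.66%, or 7.79 ± 0.183%, at the percentile 38.2.

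By lineage, Gata2 and Gata3 together averaged 21.9 ± 0.242% of the window in peaks, and Gata4, Gata5 and Gata6 averaged 16.1 ± 1.51%. The difference was 4.95 percentage points in replicate 1 and 6.74 in replicate 2, or 5.85 ± 1.27, and the groups overlapped, since Gata5 lay above Gata3. Here and in every lineage difference below, the SD is between replicates and leaves out the spread between genes of a group. In window coverage Gata4, Gata5 and Gata6 ran from 7.79% to 22.1%. With 50 kb on each side of the record the difference was 13.5 ± 0.632 points, and with 200 kb it was 2.33 ± 1.41. In the order of window coverage, Gata2 and Gata5 differed by less than the SD of Gata5, and Gata3 and Gata4 differed by less than the SD of either. Gata6 stood below all 4 others in both replicates, and the difference between the groups was not computed without it. In replicate 2 alone Gata3, with 19.8%, lay above Gata5, with 19.4%.

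**Figure D1:**
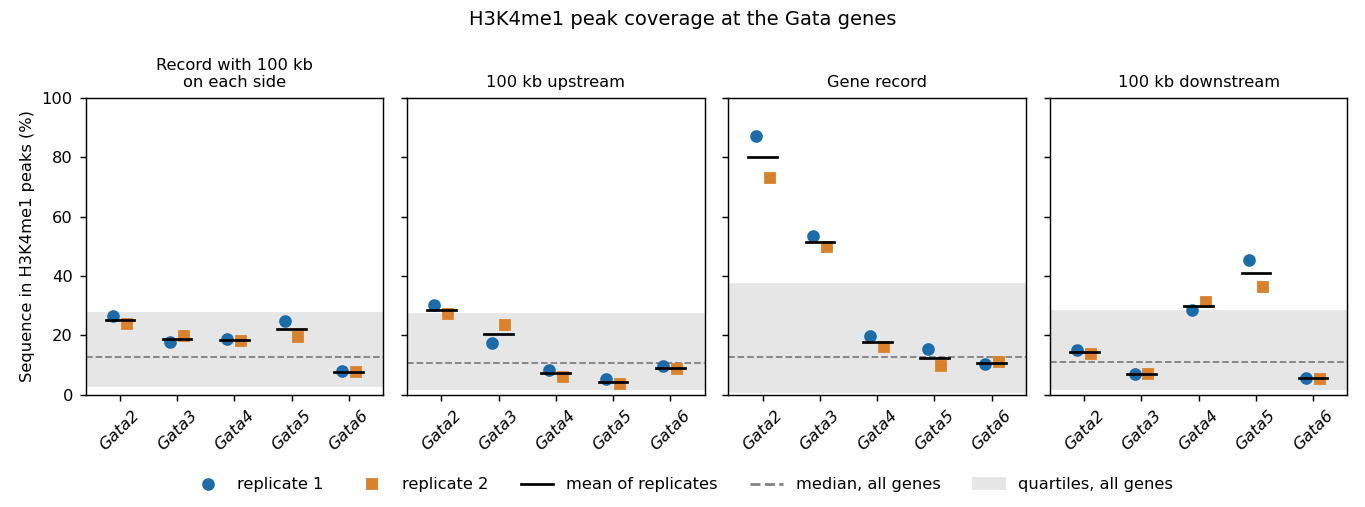
Percent of sequence in H3K4me1 peaks (vertical axis) for each gene, over the whole window, the 100 kb upstream, the gene record and the 100 kb downstream; circles and squares are replicates 1 and 2, black lines their mean, the dashed line the median and the grey band the quartiles of all genes. Gata2 (80.1%) and Gata3 (51.6%) stand above the other 3 genes over the gene record, while Gata5 (40.9%) and Gata4 (29.9%) stand above them downstream.

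Where the peaks lay in the window differed between the lineages. Over the gene record itself coverage was 87.3% and 72.9% at Gata2, or 80.1 ± 10.1%, a level at the percentile 96.3 of all genes. At Gata3 it was 53.5% and 49.7%, or 51.6 ± 2.65%, at the percentile 83.9. These were the only members with a record above the upper quartile of all genes. At Gata4 the record was covered to 19.7% and 16.1%, or 17.9 ± 2.49%. At Gata5 it was covered to 15.4% and 9.62%, or 12.5 ± 4.07%, and at Gata6 to 10.3% and 11.1%, or 10.7 ± 0.504%. Those 3 values lay near the median of all genes, 12.6%. The difference between Gata2 and Gata3 on the one side and Gata4, Gata5 and Gata6 on the other was 52.1 ± 4.38 percentage points, and the lower of Gata2 and Gata3 exceeded the highest of the others in both replicates.

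In the 100 kb upstream the same order of lineages held, with 28.7 ± 1.97% at Gata2 and 20.5 ± 4.44% at Gata3. Upstream coverage was 7.14 ± 1.66% at Gata4, 4.35 ± 1.23% at Gata5 and 9.14 ± 0.519% at Gata6, all below the median of 10.8% over all genes. Downstream the lineages stood the other way round, by -14.8 ± 0.942 percentage points for Gata2 and Gata3 minus the rest. Gata2 had 14.3 ± 1.10% and Gata3 6.85 ± 0.0276% of the 100 kb downstream in peaks, whereas Gata4 had 29.9 ± 1.94% and Gata5 40.9 ± 6.30%. Gata6, with 5.46 ± 0.0735%, was again low, so the groups overlapped there, and the median over all genes was 11.1%.

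**Figure D2:**
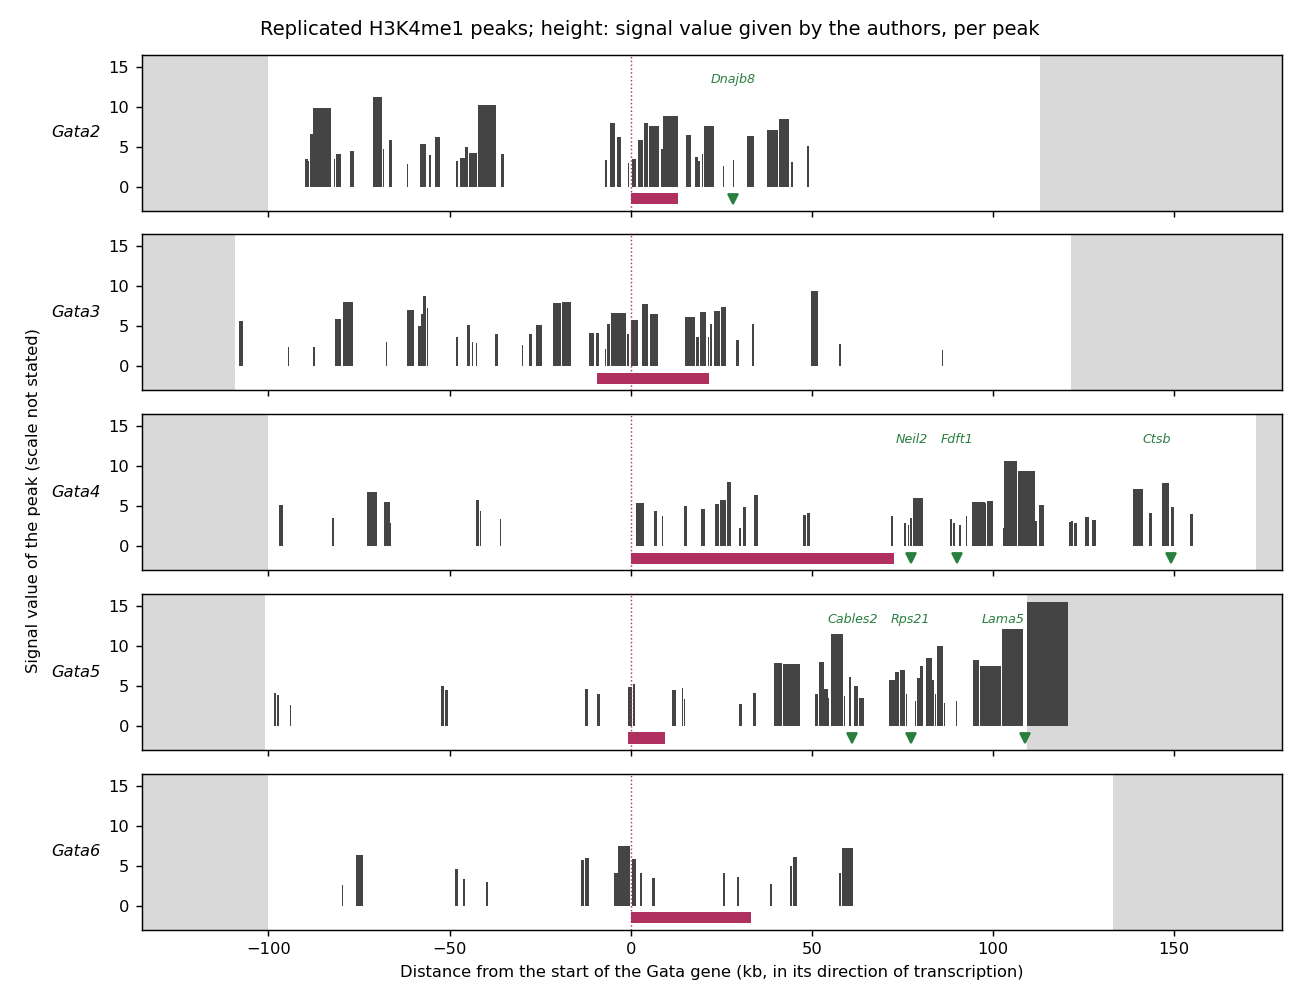
Replicated H3K4me1 peaks of the 5 windows by distance from the start of the GATA gene (kb, horizontal axis); the height of a bar is the signal value the authors gave that peak, the red bar is the gene record, green triangles are starts of other protein-coding genes and grey areas lie outside the window. Upstream of the record lie 24 of 42 replicated peaks at Gata2 and 23 of 42 at Gata3, downstream of it 27 of 49 at Gata4 and 33 of 42 at Gata5, and Gata6 has 19 in all.

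Peak signal values are the authors' own, their scale is not stated, and they are used here only to describe and rank peaks within the replicated list. The start of a gene is the first start in the RefSeq promoter table, or the 5′ end of the gene record for Gata4 and Gata6, and distances run in the direction of transcription.

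Gata2 lies at chr6:88193891-88207032 on the plus strand, a record of 13142 bp. The window held 56 peaks in replicate 1, 70 in replicate 2 and 42 in the replicated list. The record held 6 replicated peaks, of which the widest, 3943 bp at chr6:88202933-88206875, ran from 9.04 to 13.0 kb after the start. This peak ranked above 95.1% of the replicated list by signal, and both replicates covered more than 95% of it, at 98.8% and 95.6%. The peak nearest after the start, from 0.449 to 1.44 kb, ranked lower, at 28.9%. It was 94.7% covered by replicate 1 and 41.7% by replicate 2, so the replicates differed more there than over the wide peak. Joined across gaps of up to 1 kb, 7 peaks formed a domain of 13620 bp from 0.635 kb before the start to 13.0 kb after it, wider than 97.9% of all domains. The widest domain of the window was 13496 bp in replicate 1 and 10789 bp in replicate 2.

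Farther from Gata2 the strongest replicated peaks lay upstream. A peak of 2635 bp at chr6:88122655-88125289, 68.6 to 71.2 kb before the start, ranked above 99.0% of the replicated list. Another of 5116 bp, 37.1 to 42.2 kb before the start, ranked above 97.9%. That peak overlapped the long noncoding RNA gene Gm38856, whose record was 94.6 ± 2.29% covered. Between 10 and 20 kb upstream no sequence lay in a peak of either replicate, and the last 63763 bp of the window downstream held no replicated peak. Peaks nearest to the start of Gata2 itself made up 46.7% of the covered sequence in replicate 1 and 44.0% in replicate 2. The rest lay nearest to Dnajb8, a chaperone gene 28.4 kb downstream, or to Rpn1, whose start lies outside the window. The product of Rpn1 belongs to the oligosaccharide transferase. The strongest peak, 68.6 to 71.2 kb before the Gata2 start, was nearest to Rpn1. A domain of 9930 bp, 79.9 to 89.8 kb before the Gata2 start, overlapped the Rpn1 record and is part of the upstream coverage of Gata2.

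A composite of an E-box and a GATA motif, CATCTG and AGATAA parted by 8 bp, is known in an intron of Gata2 as an enhancer that GATA factors bind in blood cells. It was looked for on mm9, the build whose genome was at hand, and only the mm9 peak lists were set against it. Searched on both strands, the windows of the 5 genes held 1 match, within the Gata2 record at chr6:88153179-88153198 (mm9, plus strand), 9.29 kb after the start. It is shown with its surroundings, chr6:88153139-88153238 of mm9, because the strongest replicated peak of the record lay at that distance on mm10. Capitals mark the E-box and the GATA motif.
Gata2 composite: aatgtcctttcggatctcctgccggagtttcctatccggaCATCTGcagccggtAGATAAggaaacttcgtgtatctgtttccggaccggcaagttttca
On mm9 the match lay in a peak of 14000 bp in replicate 1 and one of 5000 bp in replicate 2. The Gata2 record on mm9 was itself covered to 100% in replicate 1 and 91.5% in replicate 2. Almost any site in the record would thus lie in a peak, and nothing particular to the match is drawn from this. The same spelling had 797 matches in the mm9 genome, and a peak held 10.3% of them in replicate 1 and 10.4% in replicate 2. Of 22225 genes on mm9, 6.26% had a match in a window of this size and 1.38% in the record. The match is a spelling of letters, and binding was not measured here.

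Gata3 lies at chr2:9857078-9887953 on the minus strand, a record of 30876 bp with the start used here at 9878600. The window held 61 peaks in replicate 1, 71 in replicate 2 and 42 in the replicated list. The record held 12 replicated peaks, the largest number per length after Gata2. That start lies inside the record, and around the 5′ end of the record 49.8 ± 1.09% of the sequence within 20 kb lay in peaks, against 49.9 ± 2.39% around the start used. Peaks stood on both sides of the start, the nearest before it ending at 385 bp and the nearest after it beginning at 9 bp in the replicated list. The peak after the start, 2058 bp wide, was covered to 90.5% by replicate 1 and to 93.4% by replicate 2. The widest peak of the record, 4304 bp at chr2:9879831-9884134, lay upstream of that start by 1.23 to 5.53 kb. It was covered to 97.8% by replicate 1 and to 79.5% by replicate 2.

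Joined peaks formed a domain of 14705 bp around the Gata3 start, from 7.04 kb before to 7.66 kb after it, wider than 98.2% of all domains. A second domain of 11370 bp began 15.0 kb after the start and ran past the 3′ end of the record. The peak of the window with the highest signal in the replicated list stood apart, 49.9 to 51.9 kb downstream at chr2:9826747-9828748, and ranked above 96.4% of the replicated list. In replicate 2 another peak, 76.6 to 79.3 kb upstream, had the highest signal of the window. The last 35331 bp of the window downstream held no replicated peak. Nearly all covered sequence lay nearest to the Gata3 start, 96.6% in replicate 1 and 95.7% in replicate 2. The remainder was nearest to Taf3, which encodes a subunit of the transcription factor TFIID. Upstream of the start used, the noncoding RNA genes 4930412O13Rik and 9230102O04Rik overlap the Gata3 record and share peaks with it. They were covered to 69.1 ± 5.15% and 55.2 ± 2.08%.

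Gata4 lies at chr14:63198914-63271712 on the minus strand and has the longest record of the 5 genes, 72799 bp. The window held 64 peaks in replicate 1, 67 in replicate 2 and 49 in the replicated list, where no other member had as many. The strongest were not at Gata4. The peaks ranked above 98.5% and 96.4% of the replicated list lay 103 to 112 kb from the Gata4 start, in a domain of 11315 bp at Fdft1, the gene for squalene synthase. Peaks nearest to Gata4 itself made up 35.4% of the covered sequence in replicate 1 and 29.3% in replicate 2. Those nearest to Fdft1 made up 30.7% and 33.9%, and others were nearest to Neil2, a DNA repair glycosylase, Ctsb, a lysosomal protease, or Blk, a kinase of B cells.

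Within the Gata4 record 14 replicated peaks were found, and 4 of the 5 with the highest signal lay 23.3 to 35.1 kb after the 5′ end. The highest ranked, 1076 bp at chr14:63244037-63245112, stood above 92.0% of the replicated list and lay 26.6 to 27.7 kb after the 5′ end. It was covered to 87.7% by replicate 1 and to 95.6% by replicate 2. The stretch from 35.8 kb before the 5′ end to 1.62 kb after it, 37408 bp, held no replicated peak. On mm9 the start of the longest coding transcript of Gata4 lay 26421 bp inside the record. On mm10 that distance from the 5′ end falls between 2 of these peaks, 24.7 to 26.3 kb and 26.6 to 27.7 kb after it. No coordinate was converted, so the place of that start on mm10 is approximate. Coverage around that start on mm9 was 33.3% and 29.3%, or 31.3 ± 2.83%, and around the 5′ end of the record it was 14.7 ± 2.83%. For Gata4 the low coverage of the start on mm10 therefore holds for the 5′ end of its record and not for every start.

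Gata5 lies at chr2:180325088-180335503 on the minus strand, in the shortest record, 10416 bp, with the start used at 180334679. The window held 70 peaks in replicate 1, 58 in replicate 2 and 42 in the replicated list. Only 2 replicated peaks touched the record, 1177 bp across the start and 403 bp just after it. The peak across the start was fully covered by replicate 1, at 100%, and to 50.6% by replicate 2. Its signal ranked above 62.6% of the replicated list.

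Most of the mark in the Gata5 window lay at its neighbours. Peaks nearest to Gata5 made up 13.2% of the covered sequence in replicate 1 and 10.2% in replicate 2. Those nearest to Cables2, which encodes a partner of a cyclin-dependent kinase, made up 36.5% and 32.3%, those nearest to the laminin gene Lama5 26.0% and 30.2%, and those nearest to the ribosomal protein gene Rps21 21.5% and 23.5%. The strongest replicated peak that touched any of the 5 windows, 11269 bp at chr2:180213892-180225160, crossed the downstream edge at Lama5. It ranked above 99.98% of the replicated list. It belonged to a domain of 24463 bp, wider than 99.5% of all domains. The Gata5 window begins at 180225088, so the peak and its domain lay almost wholly outside it. The strongest replicated peak wholly inside the Gata5 window, 5694 bp at chr2:180226396-180232089, ranked above 99.5% of the replicated list. Sequence within 20 kb of the Lama5 start was covered to 75.4 ± 2.99%, against 10.1 ± 3.72% at Gata5. Upstream, the host gene Mir1a-1hg of muscle and heart microRNAs was covered to 6.24 ± 0.808%, and no peak touched Mir1a-1 or Mir133a-2. The antisense gene Gata5os was covered to 28.3% in replicate 1 and 12.7% in replicate 2, or 20.5 ± 11.0%, so its level is known only roughly.

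Gata6 lies at chr18:11052510-11085636 on the plus strand, a record of 33127 bp. The window held 27 peaks in replicate 1, 26 in replicate 2 and 19 in the replicated list, fewer than at any other member. No other protein-coding start lay in the window, and every peak of both replicates was nearest to Gata6. The strongest replicated peak, 3146 bp at chr18:11049144-11052289, ended 221 bp before the start and ranked above 89.7% of the replicated list. It was covered to 93.7% by replicate 1 and to 83.2% by replicate 2. After the start a peak of 1295 bp began at 272 bp, so that the start lay in a gap between a pair of peaks. Together with their neighbours they formed the widest domain of the window, 7819 bp, from 4.71 kb before to 3.11 kb after the start.

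Away from the Gata6 start the mark was sparse. The next strongest replicated peak, 3099 bp, lay 58.2 to 61.3 kb downstream, beyond the record. The last 71791 bp of the window downstream held no replicated peak. In the replicate lists the longest stretch without a peak was 55863 bp in replicate 1 and 29392 bp in replicate 2 at Gata6, shorter than the 63808 bp and 44339 bp at Gata2. The outermost 20 kb inside the window on each side was 0% covered in both replicates, and the next 20 kb outside it 1.19 ± 0.0460%. At Gata2 the same strips were covered to 20.8 ± 0.378% inside and 14.4 ± 0.815% outside. The noncoding RNA gene Gata6os, which overlaps the sequence before the start, was covered to 36.9 ± 3.61%, above the Gata6 record itself. The noncoding genes were named after their values were seen.

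**Figure D3:**
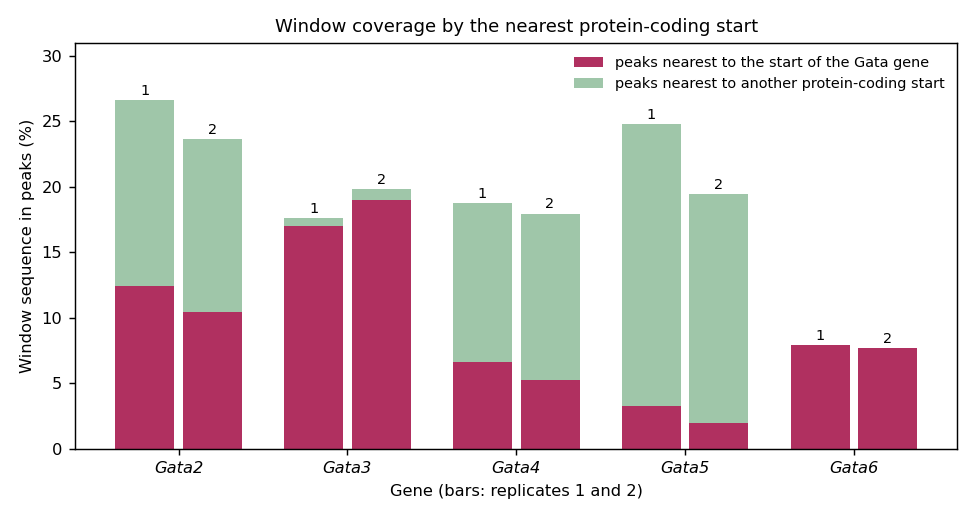
Percent of each window in H3K4me1 peaks (vertical axis), split by whether the Gata gene (red) or another protein-coding gene (green) has the start nearest to the peak; the bars marked 1 and 2 are the replicates. The red part is nearly the whole bar at Gata3 and Gata6, and the smaller part at Gata2, Gata4 and Gata5.

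Counting only peaks nearest to the own start, window coverage was 11.4 ± 1.41% at Gata2 and 18.0 ± 1.40% at Gata3. It was 5.95 ± 0.962% at Gata4, 2.62 ± 0.908% at Gata5 and 7.79 ± 0.183% at Gata6. On this count both Gata2 and Gata3 lay above the other 3 genes, and the difference between the lineages was 9.26 ± 0.682 percentage points. Gata5, second over the whole window, was the lowest of the 5 on its own peaks. The percent was taken over the whole window. The stretch that can be nearest to the own start is shorter where other starts lie in the window, as at Gata2, Gata4 and Gata5. At Gata6 it held every peak. The order on own peaks therefore also depends on the spacing of starts, and coverage of the own stretch alone was not computed. This way of counting was chosen after the data were seen.

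All 5 genes had a peak of the replicated list within 2 kb of the start, against 73.1% of 21486 protein-coding genes with a start. All 5 also had one in replicate 1, against 74.6% of genes, and in replicate 2, against 73.5%. The count over 5 genes is given only beside that background. Gata2, Gata3 and Gata6 had a start outside the replicated peaks with one within 2 kb on each side, a form found at 47.3% of genes. At Gata2 the peak on the upstream side was not overlapped by replicate 2, whose nearest peak before the start lay 2535 bp away. Gata5 had its start inside a replicated peak, as did 16.4% of genes. The Gata5 start was also inside a peak of replicate 1, but in replicate 2 it lay between peaks 196 bp before and 31 bp after it. At Gata4 a peak stood on the downstream side, 1.62 kb from the 5′ end of the record. Among the 50000 strongest replicated peaks, 2 members, Gata3 and Gata6, retained one within 2 kb of the start. The share of all genes under this cut was not computed, so this count cannot be called low or high.

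**Figure D4:**
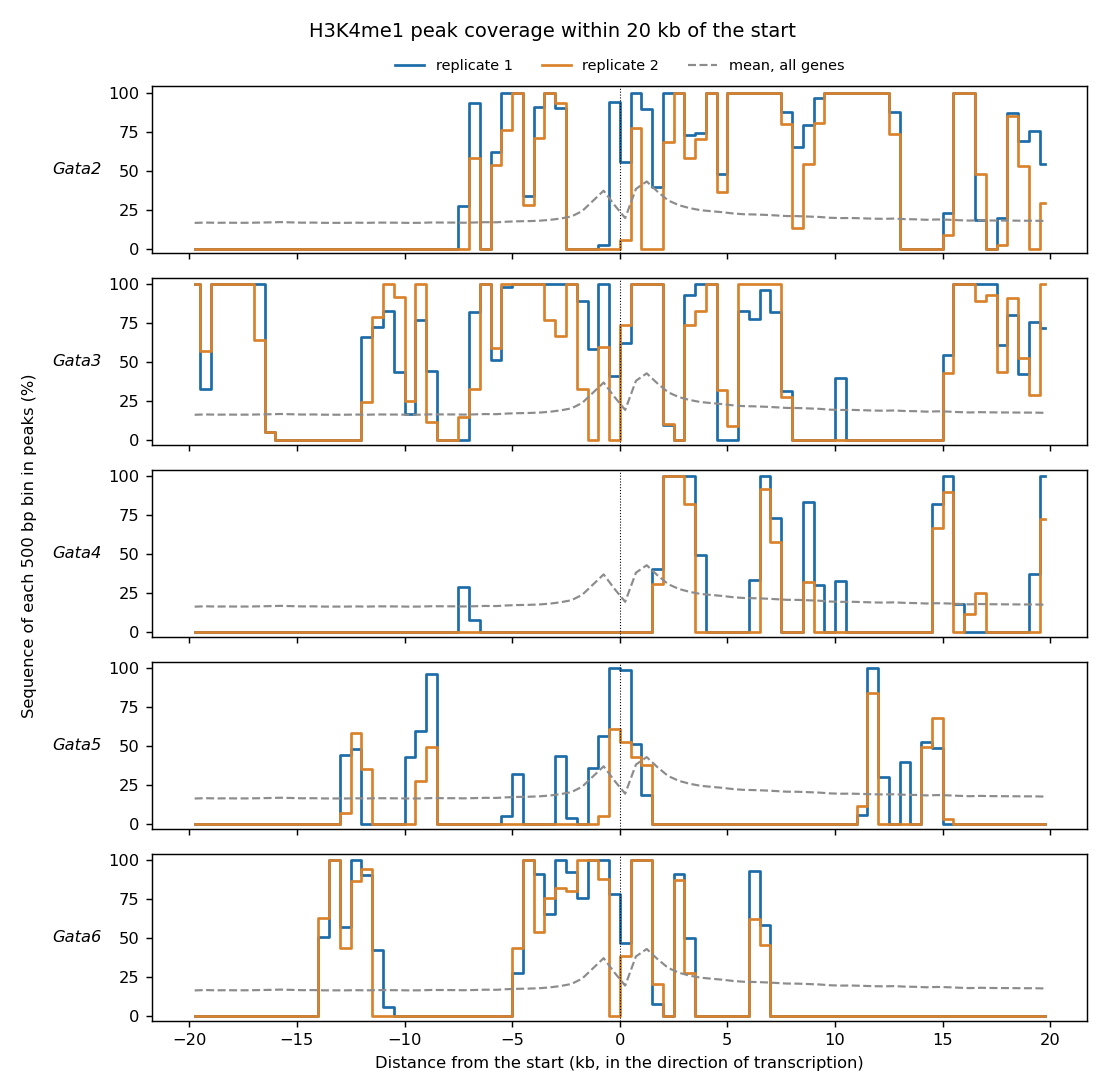
Percent of each 500 bp bin in H3K4me1 peaks (vertical axis) by distance from the start (kb, horizontal axis, in the direction of transcription); blue and orange lines are replicates 1 and 2 and the dashed line is the mean of all genes in both. Gata2 is covered for most of the 13 kb after the start, Gata3 on both sides, Gata6 for about 5 kb before the start, and Gata4 and Gata5 at few bins.

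Within 20 kb on each side of the start the lineages did not overlap. Gata2 had 45.4% and 36.5% of this sequence in peaks, or 41.0 ± 6.29%, and Gata3 had 51.6% and 48.2%, or 49.9 ± 2.39%. They stood at the percentiles 82.4 and 89.3 of 21486 genes, whose median was 13.8%. Gata4 had 13.99% and 9.52%, or 11.8 ± 3.16%, and Gata5 12.7% and 7.43%, or 10.1 ± 3.72%. Both of these lay just under the median of all genes. Gata6 had 22.8% and 19.9%, or 21.3 ± 2.07%, at the percentile 61.2. The difference between Gata2 with Gata3 and the other 3 genes was 32.0 percentage points in replicate 1 and 30.1 in replicate 2, or 31.1 ± 1.35. In the order of levels, Gata3 lay above Gata2 in both replicates, Gata6 came next, and Gata4 and Gata5 differed by less than the SD of either. On mm9, where the Gata4 start inside its record could be used, Gata2 had 55.0 ± 3.89% and Gata3 65.0 ± 1.41%. There Gata4 had 31.3 ± 2.83%, Gata5 17.2 ± 4.596% and Gata6 27.5 ± 1.41%, against a median of 22.9% over all genes.

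The order depended on the width around the start. Within 5 kb on each side Gata6, at 58.1%, lay above Gata2, at 54.9%, and below Gata3, so that the groups overlapped. Within 50 kb Gata2 and Gata3 were again above the other 3 genes. At Gata2 the profile was lopsided, since the 10 kb after the start were covered to 76.3 ± 12.8% and the 10 kb before it to 34.3 ± 7.54%. At Gata6 it leaned the other way, with 25.7 ± 2.35% after the start and 38.8 ± 3.80% before it. At Gata3 the side with more coverage differed between the replicates. Replicate 1 had 51.9% after and 68.0% before the Gata3 start, and replicate 2 had 55.5% and 54.1%.

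The genes whose profile around the start was most like that of each member were found by the mean absolute difference in coverage over 80 bins of 500 bp, on the mean of both replicates. For Gata2 they were Ssx2ip and Rab12, which differed from it by 20.8 and 20.9 percentage points per bin, against a median of 41.0 over all genes. For Gata3 they were Tmem107 and Xrcc3, both at 26.9, against a median of 48.3. The replicates of Gata2 differed from each other by 9.70 and those of Gata3 by 11.3, so the nearest genes were still farther from these members than the replicates were from each other. For Gata4 the closest were Prpf39 and P4ha3, at 9.18 and 9.23, and for Gata6 they were Plin2 and Eif2ak2, both at 12.4. The replicates differed by 5.4 at Gata4 and by 4.895 at Gata6, so the nearest genes were farther than the replicates there too. For Gata5 Svep1 and Ccdc162 were closest, at 7.24 and 7.27, beside 7.60 between its replicates. The replicate values compare single replicates, whereas the gene values use means of both. These are unlike measures, so the genes are not called alike to Gata5 within the spread of replicates. Within 20 kb of the start Svep1 had 3.75% and Ccdc162 3.53% of the sequence in peaks, against 10.1% at Gata5.

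Genes that work with the GATA factors were described by the same measure, coverage within 20 kb of the start. The GATA2 to GATA6 genes had a median of 21.3 ± 2.07%, against 13.8% over all genes. Among trophoblast partners of Gata2 and Gata3 the median was 44.7 ± 3.37%, and 8 of 8 had a replicated peak within 2 kb of the start, against 73.1% of all genes. Tfap2c and Tead4, transcription factors of the trophoblast, were highest at 65.0 ± 1.57% and 53.9 ± 2.31%, and Elf5, another, was lowest at 4.30 ± 0.117%. Among blood partners the median was 28.9 ± 1.30%, and 11 of 11 had a peak near the start, against the same 73.1%. Ldb1, the adaptor that joins GATA complexes across distances, had 66.3 ± 0.803% and the blood factor Lyl1 57.9 ± 7.05%, whereas Runx1, which is required for blood stem cells, had 1.78 ± 0.514%.

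Among T cell partners of Gata3 the median was 26.2 ± 1.31%, and 6 of 8, or 75%, had a peak near the start, against 73.1% of all genes. Zbtb7b, which sets the helper T cell fate, and Notch1, a receptor of T cell commitment, reached 70.5 ± 3.45% and 63.9 ± 2.87%, and the cytokine gene Il5 had 5.50 ± 3.02%. Among endoderm partners of Gata4 and Gata6 the median was 21.2 ± 2.18% and 9 of 10 had a peak near the start, against 73.1% of all genes. The laminin gene Lama1 and the nuclear receptor gene Hnf4a were highest at 39.0 ± 5.80% and 35.5 ± 2.90%, and Dab2, an endocytic adaptor of the endoderm, was at 0%. Among heart partners the median was 16.8 ± 2.61%, and 9 of 10 had a peak near the start, against the same 73.1%. Srf, a regulator of muscle genes, and Nkx2-5, a cardiac homeobox factor, had 33.0 ± 3.25% and 29.2 ± 4.05%, and Zfpm2, which encodes a cofactor of Gata4, had 2.10 ± 0.523%.

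The other genes with GATA-type zinc fingers spanned a narrower range. All 5 had a peak near the start, against 73.1% of all genes, and their median was 34.0 ± 2.09%. Gatad2a and Gatad2b, which encode subunits of the NuRD corepressor, had 48.4 ± 3.80% and 37.6 ± 4.16%. Gata1, which drives red cell formation, had 26.8% and 21.2%, or 24.0 ± 3.95%. It lay below Gata2 and Gata3 and differed from Gata6, at 21.3 ± 2.07%, by less than its own SD. The ranges of the lists overlapped one another, and no order of the lists is drawn from these values.

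**Figure D5:**
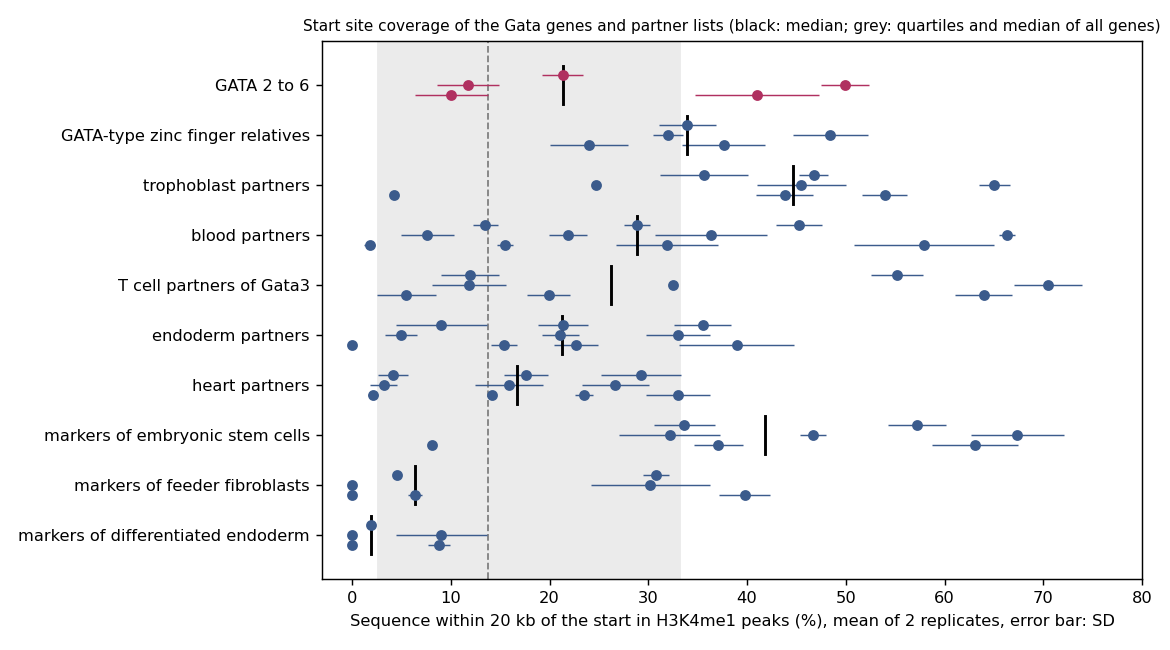
Coverage within 20 kb of the start (percent, horizontal axis) of the GATA genes, their relatives, partner lists and cell type markers; each point is a gene's mean of 2 replicates with its SD, black lines are list medians, and the dashed line and grey band are the median and quartiles of all genes. The GATA genes run from 10.1% to 49.9%, with Gata3 and Gata2 at the right.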

How the data were processed

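H3K4me1 ChIP-seq of 2 biological replicates of E14TG2a.4 cells, numbered as in the labels, was used as peak lists. Which aligner and caller produced them is not given in the sources used here. On mm10 there were narrowPeak lists of each replicate, of the pooled replicates and of the replicated peaks, as the deposited read-me lists name them. Those on mm9 were broadPeak lists with intervals on a grid of 200 bp. The signal value of each peak and its −log10 q are the authors' own, deposited without a stated scale, and served only to order or select peaks of 1 list. Replicate 2 and the pooled list drew, per the read-me lists, on 1 file that replicate 1 did not, with no role stated.

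Coverage is the percent of sequence in peaks, per replicate, over the record with 100 kb on each side or over 20 kb on each side of the start. Genes were 21887 protein-coding RefSeq records on GRCm38.p6. Starts came from the RefSeq promoter table for 17492 genes and from the 5′ end of the record, with the strand of GENCODE vM1, for 3994, Gata4 and Gata6 among them, and 401 were left out of start measures. An entry in the promoter table was found for 3 of 5 members. Percentiles over genes describe these libraries, and no p-value was computed. Counts rest on an overlap of 1 bp, and domains join replicated peaks across gaps of up to 1 kb. Sequence of mm9 came from the reference genome with GENCODE vM1, and no coordinate was converted.

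The members and gene lists were chosen with earlier results of these data known. Named genes were the members, genes whose start lies in a member window, the 2 highest and 1 lowest of each partner list, and the 2 genes most like each member, leaving out genes within 200 kb. Markers, noncoding genes and neighbours outside the windows were added to these with their values known. Alternatives were other flanks, the 50000 strongest peaks, peaks with a −log10 q of 2 or more, the pooled, replicated and mm9 lists, a reciprocal overlap of 50% and each replicate left out. The record 5′ end for every gene, leaving out Gata4, and own peaks alone were added after the data were seen. Overlap and coverage functions were tested on simulated intervals. Versions were matplotlib 3.10.9, pandas 2.3.3, numpy 2.4.6 and Python 3.11.15.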

Additional observations from a re-analysis of the deposited data

How the results depend on the processing

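The lineage differences in window coverage and around the start stayed positive under the alternatives run, but orders of single genes turned. No alternative left out Gata6, the lowest in window coverage at 7.79%, so how far the window difference rests on that gene was not tested. With 50 kb on each side the lower of Gata2 and Gata3, 26.9%, lay above the highest of the others, 20.6%. With 200 kb on each side Gata5 lay above Gata2 and Gata4 above Gata3, within 5 kb of the start Gata6 (58.1%) lay above Gata2 (54.9%), and on mm9 Gata4 (31.3%) lay above Gata6 (27.5%) and above the median of all genes (22.9%). The difference between the lineages in window coverage, 5.85 percentage points, was 13.5 with flanks of 50 kb, 2.33 with 200 kb, 4.03 with the 50000 strongest peaks, 7.90 on the mm9 lists and 9.26 with the own peaks alone, and 4.95 to 6.74 with 1 replicate left out. The difference around the start, 31.1 points, was 32.7 within 5 kb, 21.6 within 50 kb, 22.1 with the 50000 strongest peaks, 33.7 on the pooled, 33.5 on the replicated and 34.6 on the mm9 lists, and 30.1 to 32.0 with 1 replicate left out. The median window coverage of the 5 genes, 18.7%, was 20.6% with 50 kb, 18.1% with 200 kb, 8.79% with the 50000 strongest peaks, 22.5% on the pooled, 21.0% on the replicated and 27.9% on the mm9 lists, and 18.8% to 19.4% with 1 replicate left out. The count of members with a replicated peak near the start fell to 2 with the 50000 strongest peaks and was 4 within 1 kb, where Gata4 had none. The share of all genes was not computed for either setting, so nothing is read from these counts. The share of replicate 1 peaks met by replicate 2 was 50.4% with a reciprocal overlap of 50% and 90.8% on the mm9 lists. The cause of these moves was not tested.

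Of 45 window values of single genes under these alternatives, 27 moved by more than the SD of the replicates, and of 50 start values 19 did. Both totals include the values with 1 replicate left out. Those cannot move by more than an SD taken from the same 2 replicates, so they say nothing on stability. The record 5′ end likewise could not move the start values of Gata2, Gata4 and Gata6, where it is the start used. No paired analysis was possible because the 2 replicates form 1 group. Depth is unknown, and a gap between peaks says only that no peak was listed there.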
